A study of Solanum lycopersicum with 8 samples.

Results

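The change in leaf transcripts between 6 h and 12 h after spraying was measured in tomato plants (Solanum lycopersicum, cultivar Summer sweet) that had received neutralized phosphorous acid (NPA). The members are the 4 NPA arrays, 2 at 12 h and 2 at 6 h, of 8 arrays in all. The other 4 are the water arrays, 2 at 12 h and 2 at 6 h, and they show how far leaves of sprayed plants changed over the same hours without the acid. NPA here was phosphorous acid dissolved in water with potassium hydroxide added to bring it close to neutral, and both liquids were sprayed until they ran off the leaves. Each array (Affymetrix Tomato Genome) was hybridized with RNA of 5 pooled plants. The members of a group stem from 2 runs of the experiment, called repeat 1 and repeat 2. The plants were all of 1 cultivar and grew in a soilless mix under a 12 h photoperiod.

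Phosphorous acid supplies phosphite, a reduced relative of phosphate that plants take up but do not use as a phosphorus source, and that is used in agriculture to protect plants against oomycetes such as Phytophthora. Transcripts in leaves also follow the day: genes of light harvesting, the circadian clock and carbon metabolism cycle whether or not a plant is treated. Jasmonate, a hormone made from plastid lipids by lipoxygenase, allene oxide synthase, allene oxide cyclase and OPDA reductase, and polyamines, made from arginine and ornithine by decarboxylases, both respond to wounding, pathogens and other stress. In this design the hour of day and the time since spraying run together and cannot be told apart within the NPA arrays. RNA came from whole leaves, so fewer cells of a type and less RNA per cell cannot be told apart.

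Values are log2 expression values as deposited, 1 per probe set and array, and a change is the 12 h mean minus the 6 h mean. A probe set passed at an adjusted p under 0.05 in limma, with Benjamini-Hochberg adjustment over all 8404 probe sets. Annotation gave 753 of these a gene symbol, and the rest are unnamed. The medians of the 8 arrays lay between 8.77 and 8.83, and arrays of a group correlated between 0.968 and 0.987 across probe sets. Each p weighs a change against the spread within groups, pooled over the 4 groups and drawn towards that of other probe sets. That spread includes any shift between the repeats, and the number of arrays limits its precision.

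Leaves of NPA plants differed widely between the harvests. At 12 h, 1195 probe sets exceeded their 6 h level, which is 14.2% of those tested, and 988 were lower, which is 11.8%. All 2183, or 26.0% of those tested, moved the same way in both repeats. Their choice by p from these same arrays favours such agreement. The large changes were mostly falls: 129 of the falls reached 4-fold and 66 reached 8-fold, against 42 and 9 of the rises. The median change of all probe sets was 0.02. These shares of 14.2% and 11.8% are the background for the counts of the gene lists below. With the repeat as a block, 1826 probe sets rose (21.7%) and 1575 fell (18.7%), and these shares are the background for counts under the block. A fit to the NPA arrays alone called 566 rises and 492 falls. The counts without 1 array were 778 rises and 745 falls without the NPA 12 h array of repeat 1, 422 and 503 without that of repeat 2, 514 and 429 without the NPA 6 h array of repeat 1, and 546 and 511 without that of repeat 2.

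In the water arrays 981 probe sets rose (11.7%) and 886 fell (10.5%), 22.2% together. The NPA arrays of the 2 hours did not overlap in 62.7% of probe sets and the water arrays in 66.6%, so groups that do not overlap are common here. Of the 2183 changes in NPA leaves, 1158 passed in the same direction in water leaves, which is 53.0% of the NPA calls and 62.0% of the 1867 water calls. The median size of these shared changes was 0.965 in NPA leaves and 0.975 in water leaves. A further 7 passed in both in opposite directions. Across probe sets the NPA change and the water change correlated at r = 0.783 as a description, over 8404 points that share their arrays and their hours. The 1158 shared changes became 1955 with the repeat as a block. They numbered between 546 and 886 without 1 of the NPA arrays, 555 and 582 without the water 12 h array of repeat 1 or 2, and 302 and 532 without the water 6 h array of repeat 1 or 2.

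**Figure D1:**
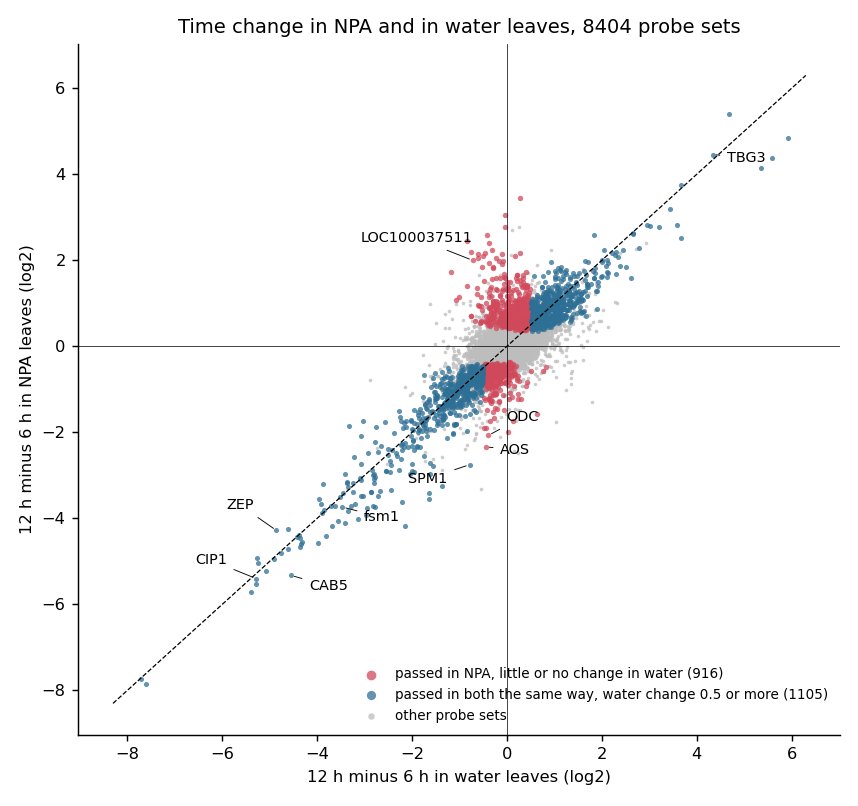
Change from 6 h to 12 h (log2) in NPA leaves on the vertical axis and in water leaves on the horizontal axis, 1 point for each of 8404 probe sets, with the dashed line marking equal change. The 1105 blue points passed in both the same way with a water change of 0.5 or more. They lie around the dashed line, and some are well off it, such as SPM1 at -2.75 in NPA leaves and -0.785 in water leaves. The 916 red points, labelled as little or no change in water, passed in NPA leaves. Their water change was under 0.5 or ran the opposite way.

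Light-harvesting and carotenoid genes had some of the largest named falls, and these were shared with water. CAB5, a chlorophyll a/b-binding protein of the light-harvesting antenna, stood at 8.05 and 8.72 in NPA leaves at 12 h, against 13.67 and 13.75 at 6 h. It fell by 5.33 on the log2 scale (SE 0.27, 40.1-fold, limma adjusted p = 0.000258, n = 2 arrays in each group here and below). The groups were far apart, and in water leaves CAB5 stood at 8.94 and 9.55 at 12 h, against 13.77 and 13.82 at 6 h, a fall of 4.55.

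CAB4 and CAB6A, which encode other antenna proteins, fell too. CAB4 stood at 11.03 and 11.63 in NPA leaves at 12 h, against 13.90 and 13.85 at 6 h, and its change was -2.545 in NPA leaves and -2.32 in water leaves. CAB6A stood at 12.31 and 11.98 at 12 h, against 14.11 and 14.07 at 6 h, with changes of -1.945 and -1.85. Of 8 probe sets for light harvesting and photosynthesis these 3 fell and none rose, against 11.8% and 14.2% of all probe sets. The other 5 did not pass, and the highest of them changed by 0.19. The median of the list was -0.05 in NPA leaves and -0.03 in water leaves. The 3 CAB genes were also the only ones of 21 leaf mesophyll markers with a named probe set, and their mean level lay between 10.5 and 10.8 at 12 h and at 13.9 at 6 h in NPA leaves.

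Zeaxanthin epoxidase (ZEP), which converts zeaxanthin on the way to abscisic acid, stood at 6.97 and 7.11 in NPA leaves at 12 h, against 11.62 and 11.02 at 6 h. The fall of 4.28 (SE 0.28, adjusted p = 0.000535) compared with one of 4.86 in water leaves. Phytoene synthase (Psy1), the first committed enzyme of carotenoid synthesis, moved the other way. On its brighter probe set it stood at 9.89 and 10.55 at 12 h, against 7.41 and 6.65 at 6 h, a rise of 3.19 (SE 0.40, adjusted p = 0.00431) beside 3.445 in water leaves. DXS, which opens the plastid pathway that feeds carotenoids, fell by 1.045 (adjusted p = 0.0105), beside a change of -1.18 in water leaves, and did not pass without the NPA 6 h array of repeat 2 (0.0531).

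Among light and clock regulators 5 of 15 probe sets rose and 2 fell, against 14.2% and 11.8% of all probe sets. The median was 0.32 in NPA leaves and 0.005 in water leaves. The falls were the 2 probe sets of CIP1. The first stood at 5.92 and 5.94 in NPA leaves at 12 h, against 11.55 and 11.11 at 6 h, and changed by -5.40 (SE 0.29, 42.2-fold, adjusted p = 0.000283) beside -5.28 in water leaves, and the second changed by -4.80 and -4.77. The rises were GBF12, a G-box-binding factor, LePCL1, a homologue of the Arabidopsis clock gene PHYTOCLOCK1, COP1, a ubiquitin ligase that represses light responses, and the cryptochromes Cry1b and CRY2, which perceive blue light.

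GBF12 stood at 10.26 and 10.73 in NPA leaves at 12 h, against 8.10 and 8.40 at 6 h, a rise of 2.245 (SE 0.27, adjusted p = 0.00366) beside 2.045 in water leaves. LePCL1 stood at 8.66 and 8.95 at 12 h, against 6.47 and 7.28 at 6 h, a rise of 1.93 (SE 0.41, adjusted p = 0.0187) beside 2.125 in water leaves. COP1 stood at 9.48 and 10.44 at 12 h, against 8.18 and 8.27 at 6 h, a rise of 1.735 (SE 0.32, adjusted p = 0.0121) beside 1.225 in water leaves. In each of the 3 genes both NPA 12 h arrays lay above both NPA 6 h arrays. LePCL1 did not pass without the NPA 12 h array of repeat 2 (0.0813) or the NPA 6 h array of repeat 1 (0.0922), nor COP1 without the NPA 6 h array of repeat 1 (0.0615) or repeat 2 (0.0524).

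The cryptochromes moved less. Cry1b changed by 0.58 in NPA leaves (adjusted p = 0.0227) and 0.595 in water leaves. CRY2 stood at 9.68 and 9.73 in NPA leaves at 12 h, against 9.16 and 9.32 at 6 h, and in water leaves at 9.55 and 9.60, against 9.46 and 9.61. It changed by 0.465 in NPA leaves (adjusted p = 0.0336) and by 0.04 in water leaves, with adjusted p = 0.362 for the difference. Cry1b did not pass without either NPA 12 h array (0.053 for repeat 1 and 0.102 for repeat 2) or the NPA 6 h array of repeat 1 (0.109), and CRY2 did not pass without any 1 of the 8 arrays (0.0557 to 0.147).

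**Figure D2:**
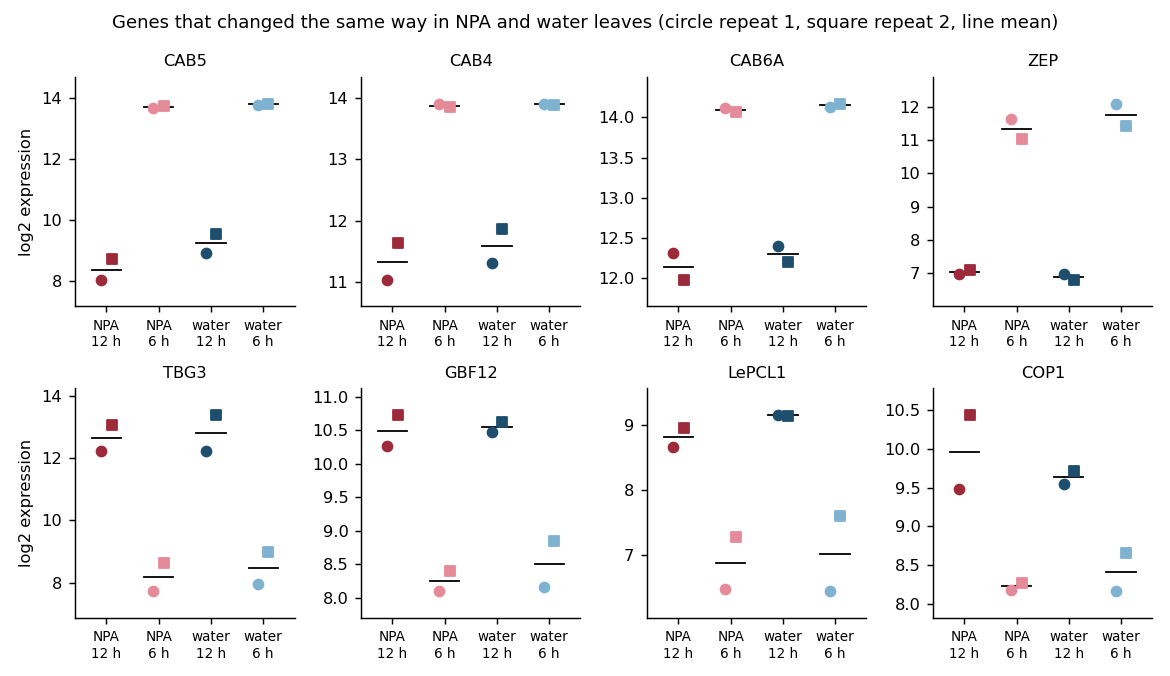
Log2 expression of 8 genes on each array, with NPA 12 h, NPA 6 h, water 12 h and water 6 h from left to right, circles for repeat 1, squares for repeat 2 and a line at the group mean. Axes do not start at 0. CAB5, CAB4, CAB6A and ZEP are lower at 12 h than at 6 h under both sprays, and TBG3, GBF12, LePCL1 and COP1 are higher, with NPA and water arrays of the same hour close together.

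TBG3, a beta-galactosidase that acts on cell wall galactans, had the largest rise of a named gene. It stood at 12.22 and 13.05 in NPA leaves at 12 h, against 7.72 and 8.63 at 6 h, a rise of 4.46 (SE 0.55, 22-fold, adjusted p = 0.00406) beside 4.335 in water leaves. Of 32 cell wall probe sets 3 rose and 4 fell, against 14.2% and 11.8% of all probe sets. The median was -0.1125 in NPA leaves and -0.055 in water leaves. With the repeat as a block 7 rose and 6 fell, against 21.7% and 18.7%.

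The beta-galactosidase genes did not move as a family. TBG7 fell by 1.185 (adjusted p = 0.00568) and TBG6 by 0.88 (0.0346), while TBG4 stood at 8.04 and 8.87 in NPA leaves at 12 h, against 7.07 and 7.07 at 6 h, and rose by 1.385 (SE 0.31, adjusted p = 0.022). In water leaves TBG7 and TBG6 changed by -1.14 and -1.025, and TBG4 by 0.015. TBG5 was at 0.17 in NPA leaves and at -0.865 in water leaves. TBG4 did not pass without the NPA 12 h array of repeat 2 (0.076) or the NPA 6 h array of repeat 1 (0.0907) or repeat 2 (0.0836), and TBG6 did not pass without any 1 array other than the NPA 12 h array of repeat 2 (0.0548 to 0.142).

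The other cell wall genes that passed were XTH1, a xyloglucan endotransglucosylase/hydrolase, at -1.505 (adjusted p = 0.00619), LE16, a lipid transfer protein, at -1.48 (0.0305), and Cel1, an endo-beta-1,4-glucanase, at 0.945 (0.0173). In water leaves they changed by -1.585, -0.68 and 0.265. Cel1 did not pass without the NPA 12 h array of repeat 2 (0.0806) or the NPA 6 h array of repeat 2 (0.0836), nor LE16 without any 1 NPA array (0.0629 to 0.141).

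Of 20 probe sets for sugar, starch and organic acid metabolism 3 rose, 7 fell and 10 did not pass in NPA leaves, against background shares of 14.2% and 11.8%, with a median of -0.3675 in NPA leaves and -0.5775 in water leaves. PPCK1, the kinase that activates phosphoenolpyruvate carboxylase, stood at 8.14 and 7.46 in NPA leaves at 12 h, against 9.93 and 10.12 at 6 h, and fell by 2.225 (adjusted p = 0.00353) beside a change of -2.77 in water leaves. The other falls were PPCK2 at -1.13, hexokinase hxk1 at -1.15, the fructokinases FRK2 at -1.265, FRK1 at -0.93 and FRK3 at -0.79, and AgpL1, a subunit of the enzyme that makes ADP-glucose for starch, at -0.90. The rises were gMDH, glyoxysomal malate dehydrogenase, at 1.095, acid invertase (AI) at 0.83, and SNF1, an energy-sensing kinase, at 0.74.

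All but FRK1 of these 10 genes also passed in water leaves, and FRK1 changed there by -0.42 (adjusted p = 0.101, or 0.0313 with the repeat as a block). FRK1 did not pass without the NPA 6 h array of repeat 1 (0.0519), nor AI without the same array (0.0594), nor SNF1 without it (0.0671) or the NPA 12 h array of repeat 2 (0.074). AgpL1 did not pass without the NPA 12 h array of repeat 1 (0.0622) or repeat 2 (0.0501) or the NPA 6 h array of repeat 1 (0.0714). FRK3 did not pass without the NPA 12 h array of repeat 2 (0.0835) or the NPA 6 h array of repeat 1 (0.0876) or repeat 2 (0.0608).

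Other large changes shared with water were a growth gene, a clock-regulated gene and a translation factor. fsm1, which encodes a MYB-like protein known from young fruit, stood at 4.63 and 3.23 in NPA leaves at 12 h, against 7.94 and 7.39 at 6 h, and fell by 3.735 (adjusted p = 0.00405) beside a change of -3.465 in water leaves. Dea1 fell by 2.46 (adjusted p = 0.00406) beside a change of -2.72. eIF-5A1, a translation factor, rose by 1.975 (adjusted p = 0.00255) beside 1.645, and the 14-3-3 gene tft10 by 1.54 (0.00468) beside 1.645. Of 15 cell cycle and growth probe sets the other call was krp1, an inhibitor of cyclin-dependent kinases, at 1.04 (0.0189) beside 1.37 in water leaves, and it did not pass without the NPA 12 h array of repeat 2 (0.0879) or the NPA 6 h array of repeat 1 (0.0779).

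The changes with little or no counterpart in water are taken as those that passed in NPA leaves and were either under 0.5 in size in water leaves or ran the opposite way there. Little or no change in water stands for both kinds, and an opposite change can be of any size. They numbered 916, or 10.9% of the probe sets tested and 42.0% of the NPA calls. They were 587 rises, which is 6.98% of those tested and 49.1% of all rises, and 329 falls, which is 3.91% of those tested and 33.3% of all falls. Of the 916, 208 ran the opposite way in water leaves. Some of the 916 also passed in water leaves, 53 in the same direction and 7 in the opposite one. Named among the 916 were 45 rises and 28 falls. The median change was 0.73 in NPA leaves and 0.195 in water leaves for the rises, and -0.64 and -0.25 for the falls. These counts rest on a threshold in each spray and do not by themselves show that the time change differed between the sprays. Without 1 array the 916 became 539 and 247 (NPA 12 h, repeats 1 and 2), 327 and 274 (NPA 6 h), 810 and 680 (water 12 h), and 647 and 556 (water 6 h). Under the block they became 1691.

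The difference itself was fitted as the NPA time change minus the water time change. No probe set passed after adjustment in limma (0 of 8404, smallest adjusted p = 0.0761), and 1123 had an unadjusted p under 0.05, or 13.4%, against 420.2 by chance, 668 of them higher in NPA leaves (7.95%) and 455 lower (5.41%). At the same unadjusted p, 39.6% of probe sets differed between the hours in NPA leaves. Of the 916, 444 had such a p, 326 of the rises and 118 of the falls. The 916 were chosen by the NPA and water changes that make up this difference, so a high share is built in. The 444 are therefore a description and no evidence that the sprays differed. A difference passed for 1 probe set with an intensity trend, with the dimmest probe sets left out, with the brighter ones alone or without the NPA 6 h array of repeat 1, for 2 after another quantile normalization and for 5 with a random block. None passed with array weights, median centring, robust estimation or the repeat as a fixed block, or without any 1 of the other 7 arrays. For many of the genes below the adjusted p of this difference is given beside the changes, from the fit without a block unless stated. Where it is not given, the difference did not pass in that fit either. With the repeat as a fixed block it was 0.0963 for AOS, LOC100037511 and the dimmer Psy1 probe set, and 0.098 for ODC. A gene that passed in NPA leaves and not in water leaves is not shown by that to differ between the sprays.

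Most of the 916 differed from water more at 6 h than at 12 h. Of the 587 rises, 481 were above water at 12 h and 568 below it at 6 h, and the distance between the sprays was wider at 12 h in 176, wider at 6 h in 409 and equal in 2. The median distance of NPA from water was 0.22 at 12 h and -0.37 at 6 h. Of the 329 falls, 258 were below water at 12 h and 295 above it at 6 h, with the wider distance at 12 h in 120 and at 6 h in 207. Their medians were -0.145 at 12 h and 0.25 at 6 h. These distances come from the arrays that chose the 916, so they are a description without a test. The same split over all probe sets is not given here, so it is not shown to be particular to the 916.

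Of 11 probe sets for jasmonate synthesis and signalling 5 fell in NPA leaves, none rose and 6 did not pass, against 11.8% of all probe sets that fell and 14.2% that rose. For AOS, AOC, OPR3 and MYC2 the change in water leaves was smaller in size, although none of these differences between the sprays passed. The list stood at a median of -1.155 in NPA leaves and -0.70 in water leaves. Allene oxide synthase (AOS) stood at 4.66 and 4.12 in NPA leaves at 12 h, against 6.74 and 6.71 at 6 h, and at 3.76 and 4.09 in water leaves at 12 h, against 4.11 and 4.63 at 6 h. The 6 h NPA arrays stood above all 6 others. AOS fell by 2.335 in NPA leaves (SE 0.25, 5.05-fold, adjusted p = 0.00264) and changed by -0.445 in water leaves, and the difference was -1.89 (SE 0.35, adjusted p = 0.185). This probe set is dim: the lowest value of any array was 2.68, and array medians lay between 8.77 and 8.83. Water leaves thus had little room to fall, and how far this limited their change was not tested.

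Allene oxide cyclase (AOC), the next enzyme, stood at 9.34 and 9.17 in NPA leaves at 12 h, against 11.70 and 11.90 at 6 h, and at 8.86 and 9.31 in water leaves at 12 h, against 10.76 and 10.90 at 6 h. It fell by 2.545 in NPA leaves (SE 0.18, adjusted p = 0.000842) and fell by 1.745 in water leaves, with adjusted p = 0.278 for the difference. At 12 h the NPA and water arrays overlapped, and at 6 h the NPA arrays were higher.

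OPR3, the OPDA reductase of jasmonate synthesis, stood at 9.34 and 9.21 in NPA leaves at 12 h, against 9.80 and 9.81 at 6 h, and between 9.27 and 9.37 in all 4 water arrays. The fall of 0.53 (SE 0.11, adjusted p = 0.0163) was small in size beside a water change of 0.08 (adjusted p = 0.2 for the difference). MYC2, a transcription factor of jasmonate responses, stood at 9.94 and 10.05 in NPA leaves at 12 h, against 11.12 and 11.26 at 6 h. It fell by 1.195 (SE 0.20, adjusted p = 0.00972) beside a change of -0.49 in water leaves, where it stood at 9.96 and 10.55 at 12 h, against 10.68 and 10.81 at 6 h (adjusted p = 0.129, or 0.0458 with the repeat as a block, and 0.365 for the difference). OPR3 did not pass without the NPA 12 h array of repeat 2 (0.0837) or the NPA 6 h array of repeat 1 (0.0701) or repeat 2 (0.0683), nor MYC2 without the NPA 6 h array of repeat 2 (0.0502).

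Hydroperoxide lyase (HPL), which draws on the same lipid hydroperoxides to make leaf volatiles, fell under both sprays, by 1.305 in NPA leaves (adjusted p = 0.00634) and 1.29 in water leaves. The lipoxygenases loxD at -1.155 (adjusted p = 0.0676) and LOX1.1 at -1.47 (0.0539) did not pass in NPA leaves, but did with the repeat as a block (0.0173 and 0.0213). opr2, another reductase gene, stood at 0.64 in NPA leaves and -1.165 in water leaves (adjusted p = 0.2 for the difference).

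Of 6 polyamine probe sets, 4 of them of the gene adc1, 5 fell in NPA leaves, against 11.8% of all probe sets, and the sixth had a negative change that did not pass, with a median of -1.0975 in NPA leaves and -0.555 in water leaves. Ornithine decarboxylase (ODC) stood at 8.32 and 8.11 in NPA leaves at 12 h, against 10.32 and 10.25 at 6 h, and at 7.81 and 8.60 in water leaves at 12 h, against 8.60 and 8.59 at 6 h. It fell by 2.07 in NPA leaves (SE 0.25, 4.20-fold, adjusted p = 0.00372) beside a change of -0.39 in water leaves (adjusted p = 0.185 for the difference). Its NPA 6 h arrays stood above all others, which overlapped.

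Arginine decarboxylase opens the other route to putrescine. Its probe set ADC stood at 9.48 and 10.28 in NPA leaves at 12 h, against 12.56 and 12.61 at 6 h, and at 9.95 and 10.65 in water leaves at 12 h, against 11.97 and 11.85 at 6 h. It fell by 2.705 in NPA leaves (SE 0.31, adjusted p = 0.00334) and by 1.61 in water leaves (adjusted p = 0.365 for the difference). The 4 probe sets of adc1 changed by -1.02, -1.125, -1.07 and -0.595 in NPA leaves and by -0.52, -0.59, -0.635 and -0.455 in water leaves. The first 3 fell in NPA leaves, and the last passed there with the repeat as a block (0.0344 against 0.0702 without). In water leaves the first 3 did not pass (0.0587 to 0.0974), but did with the block (0.0206 to 0.0444). RefSeq's gene table lists ADC and adc1 as separate genes, and whether the probe sets tell them apart was not tested. The adc1 probe set at -1.07 did not pass without the NPA 12 h array of repeat 2 (0.0614) or the NPA 6 h array of repeat 1 (0.0985) or repeat 2 (0.0569).

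Arginase (ARG2), which turns arginine into ornithine and is induced by wounding in tomato, fell on all 3 of its probe sets, and they differed in how water leaves behaved. The first, the dimmest of the 3, stood at 5.65 and 6.09 in NPA leaves at 12 h, against 7.64 and 7.88 at 6 h. In water leaves it stood at 4.56 and 5.57 at 12 h, against 5.45 and 5.57 at 6 h. It fell by 1.89 in NPA leaves (SE 0.33, adjusted p = 0.0105) beside a change of -0.445 in water leaves (adjusted p = 0.281 for the difference). The other probe sets changed by -1.695 and -1.485 in NPA leaves and by -1.465 and -1.325 in water leaves, where they passed with the repeat as a block (0.0252 and 0.0355) and not without it (0.0654 and 0.0715). Their differences between the sprays had adjusted p = 0.921 and adjusted p = 0.941. The first did not pass without the NPA 6 h array of repeat 2 (0.0534), and the others did not pass without any 1 NPA array or either water 6 h array (0.061 to 0.166), or with array weights (0.055 and 0.0646).

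The list of wound and herbivore defence proteins held 12 probe sets, of which 2 rose and 4 fell, against 14.2% and 11.8% of all probe sets. Its median was -0.215 in NPA leaves and -0.255 in water leaves. Besides arginase the fall was LAPA1, a leucine aminopeptidase induced by wounding, at -1.28 (adjusted p = 0.0435) beside -1.65 in water leaves. The rises were LEJA1 at 0.705 (0.018) beside -0.305 in water leaves (adjusted p = 0.185 for the difference), and LAPA2 at 0.435 (0.0498) beside 0.17. LEJA1 did not pass without the NPA 12 h array of repeat 2 (0.0812) or the NPA 6 h array of repeat 1 (0.0594) or repeat 2 (0.0833). LAPA1 did not pass without any 1 NPA array or either water 6 h array (0.0718 to 0.164) or with array weights (0.0582). LAPA2 did not pass without any 1 of the 8 arrays (0.0585 to 0.18), with robust estimation (0.0507), with array weights (0.0663) or with the NPA arrays alone (0.12).

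SPM1 had the smallest p of any probe set for the difference of time changes. It stood at 9.11 and 9.26 in NPA leaves at 12 h, against 11.92 and 11.95 at 6 h, and at 9.30 and 9.39 in water leaves at 12 h, against 10.12 and 10.14 at 6 h. Both sprays were lower at 12 h, by 2.75 in NPA leaves (SE 0.11, 6.73-fold, adjusted p = 0.000102) and by 0.785 in water leaves (adjusted p = 0.00692). The difference was -1.965 (SE 0.16, adjusted p = 0.0761, or 0.0614 with the repeat as a block). It passed with an intensity trend (0.0491), with the dimmest probe sets left out (0.0338), with only the brighter probe sets kept (0.0171), after another quantile normalization (0.0481) and with the repeat as a random block (0.0146).

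**Figure D3:**
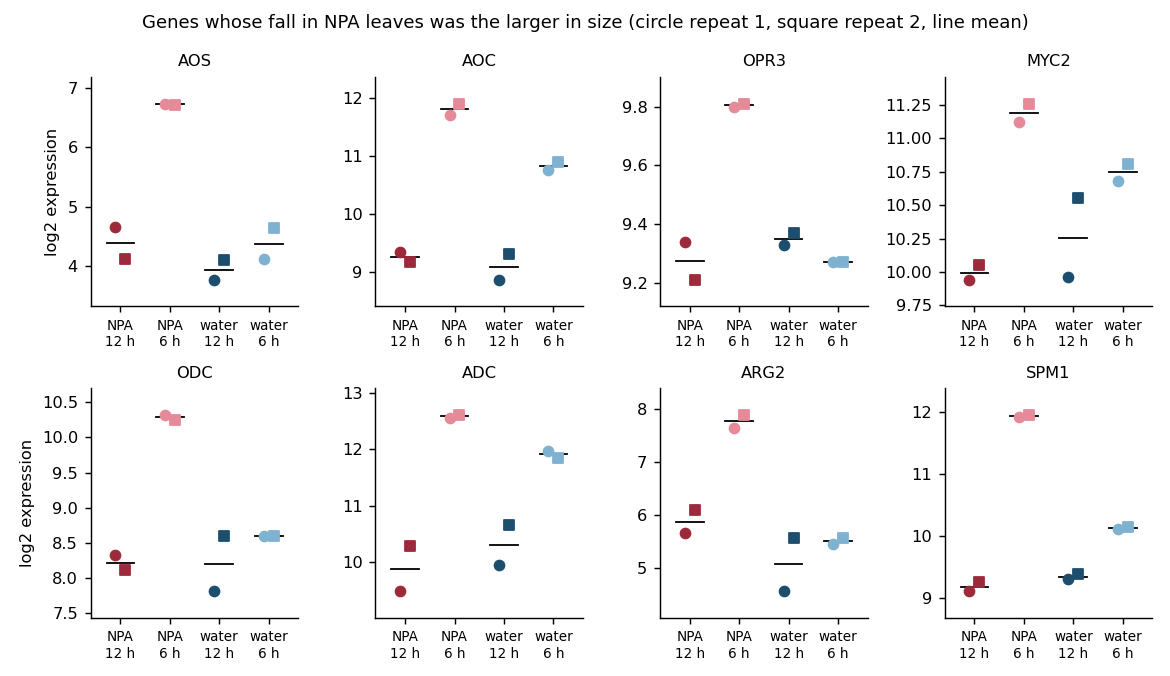
Log2 expression on each array of 8 genes whose fall in NPA leaves was larger in size than their change in water leaves, with NPA 12 h, NPA 6 h, water 12 h and water 6 h from left to right, circles for repeat 1, squares for repeat 2 and a line at the group mean. Axes do not start at 0. ARG2 is shown by its dimmest probe set. Its brighter probe sets changed by -1.695 and -1.485 in NPA leaves and by -1.465 and -1.325 in water leaves. In each panel the NPA 6 h arrays are the highest, while the 12 h arrays of the sprays lie closer together.

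The remaining named falls with little or no change in water were mixed. ETR6, an ethylene receptor, stood at 5.29 and 5.10 in NPA leaves at 12 h, against 5.81 and 5.92 at 6 h, and changed by -0.67 (adjusted p = 0.0139) beside 0.02 in water leaves. DHQS, an enzyme of the shikimate pathway, changed by -0.655 (0.0199) beside -0.075, FDH by -1.425 (0.0151) beside -0.245, and LOC544187 by -1.30 (0.0162) beside -0.165. For these 4 genes the adjusted p of the difference lay between 0.222 and 0.301. ETR6 and DHQS did not pass without the NPA 12 h array of repeat 2 (0.0714 and 0.0922) or the NPA 6 h array of repeat 1 (0.0509 and 0.099) or repeat 2 (0.0679 and 0.0529). FDH did not pass without the NPA 6 h array of repeat 1 (0.0777) or repeat 2 (0.0549), nor LOC544187 without either (0.0644 and 0.0745) or without the NPA 12 h array of repeat 1 (0.0519).

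Rises with little or no change in water were more numerous than such falls. LOC100037511 stood at 6.48 and 6.94 in NPA leaves at 12 h, against 5.0 and 4.42 at 6 h, and at 5.84 and 5.40 in water leaves at 12 h, against 6.22 and 6.46 at 6 h. It rose by 2.0 in NPA leaves (SE 0.27, 4.0-fold, adjusted p = 0.00499) and changed by -0.72 in water leaves, a difference of 2.72 (adjusted p = 0.182). The sprays thus moved in opposite directions on this probe set.

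MFP1, a filament-like protein that binds matrix attachment regions of DNA and is found on plastid thylakoids, stood at 9.73 and 10.04 in NPA leaves at 12 h, against 8.58 and 8.54 at 6 h, and between 9.22 and 9.67 in the water arrays. It rose by 1.325 (SE 0.19, adjusted p = 0.00652) beside a change of -0.08 in water leaves, a difference of 1.405 (adjusted p = 0.185). LOC543829 stood at 8.99 and 9.19 in NPA leaves at 12 h, against 7.85 and 7.55 at 6 h, and rose by 1.39 (SE 0.21, adjusted p = 0.00752) beside -0.34 in water leaves (adjusted p = 0.185 for the difference). In both genes the NPA 6 h arrays were the lowest of the 8.

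LHP1, a homologue of the Arabidopsis chromatin protein LIKE HETEROCHROMATIN PROTEIN1, stood at 9.82 and 9.92 in NPA leaves at 12 h, against 9.18 and 8.90 at 6 h, and rose by 0.83 (adjusted p = 0.0178) beside -0.17 in water leaves (adjusted p = 0.2 for the difference). LOC543710 rose by 0.96 beside 0.31 in water leaves, and LOC544217 by 0.505 beside -0.11 (adjusted p = 0.2 and adjusted p = 0.214 for the differences). LHP1 did not pass without the NPA 12 h array of repeat 2 (0.0796) or the NPA 6 h array of repeat 2 (0.0838), nor LOC544217 without any 1 NPA array (0.0595 to 0.0971).

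Of 15 carotenoid and abscisic acid probe sets 3 rose and 2 fell in NPA leaves, against 14.2% and 11.8% of all probe sets. With the repeat as a block 5 rose and 3 fell, against 21.7% and 18.7%. In water leaves 1 rose and 4 fell, against 11.7% and 10.5%. The median was 0.20 in NPA leaves and -0.20 in water leaves. CCD1A, a dioxygenase that cleaves carotenoids into volatiles, stood at 8.59 and 8.70 in NPA leaves at 12 h, against 7.79 and 7.82 at 6 h, and at 8.42 and 8.08 in water leaves at 12 h, against 8.21 and 8.30 at 6 h. It rose by 0.84 (SE 0.14, adjusted p = 0.0101) beside -0.005 in water leaves (adjusted p = 0.2 for the difference).

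The dimmer probe set of Psy1 parted from the brighter one. It stood at 6.49 and 6.59 in NPA leaves at 12 h, against 5.46 and 5.74 at 6 h, and between 5.87 and 6.19 in the water arrays. It rose by 0.94 (adjusted p = 0.0106) beside 0.07 in water leaves (adjusted p = 0.224 for the difference), while the brighter probe set rose under both sprays. CCD1A and this probe set did not pass without the NPA 12 h array of repeat 2 (0.0522 and 0.0532) or the NPA 6 h array of repeat 1 (0.0515 and 0.0558).

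HDS, an enzyme of the plastid pathway to carotenoid precursors, stood at 11.51 and 11.58 in NPA leaves at 12 h, against 11.16 and 10.92 at 6 h, and changed by 0.505 (adjusted p = 0.0381) beside -0.35 in water leaves (adjusted p = 0.191 for the difference). It did not pass without any 1 of the 8 arrays (0.0556 to 0.157), with array weights (0.0538) or with the NPA arrays alone (0.105). Phytoene desaturase (PDS), the step after Psy1, and CRTL-E-1, a lycopene cyclase, did not pass in NPA leaves, at 0.15 and -0.02, and fell in water leaves, by 0.73 and 0.72, with adjusted p = 0.185 and adjusted p = 0.2 for the differences. PDS stood at 9.85 and 9.84 in NPA leaves at 12 h, against 9.69 and 9.70 at 6 h, and at 9.66 and 9.43 in water leaves at 12 h, against 10.21 and 10.34 at 6 h. NCED1, which cleaves carotenoids towards abscisic acid, stood at -1.895 in NPA leaves and -0.99 in water leaves and passed in NPA leaves with the repeat as a block (0.00843 against 0.0584 without).

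**Figure D4:**
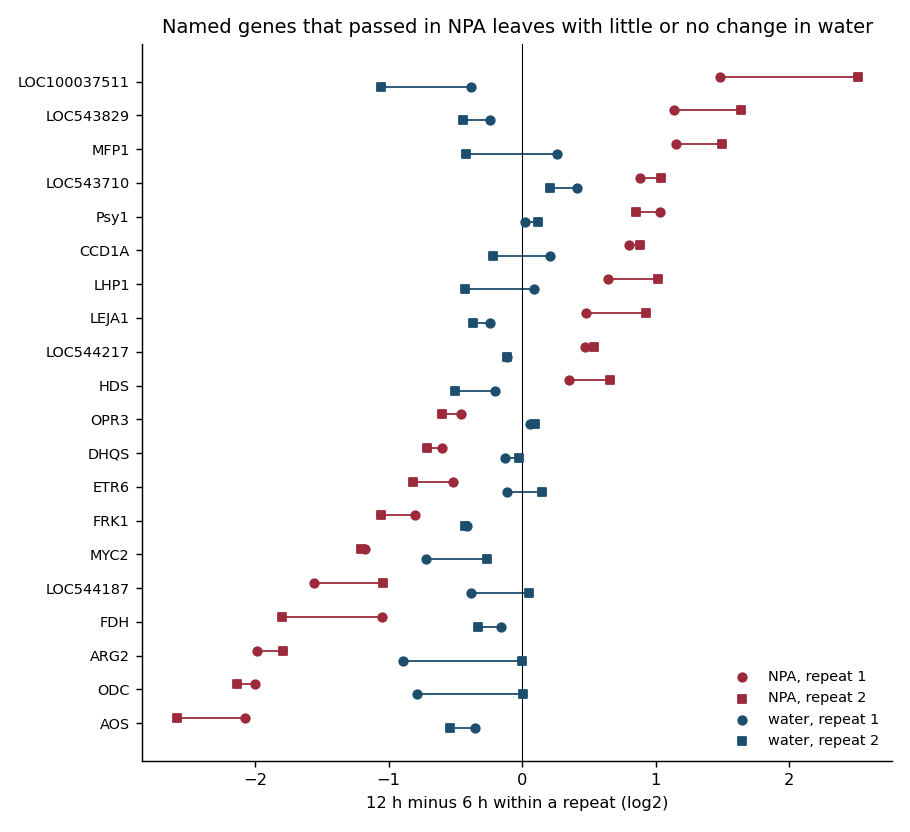
Change from 6 h to 12 h (log2) within each repeat for 20 named genes that passed in NPA leaves with a water change under 0.5 or in the opposite direction. NPA is in red above water in blue for each gene, with circles for repeat 1, squares for repeat 2 and a line joining the repeats. Psy1 and ARG2 are shown by the dimmer and the dimmest of their probe sets, and their brighter probe sets changed by similar amounts under both sprays. For each gene shown both NPA repeats lie on the same side of 0, and 10 genes lie above it and 10 below. The genes were chosen by p from these same arrays, which favours such agreement.

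TDR6, a MADS-box transcription factor known from flowers, stood at 8.54 and 9.11 in NPA leaves at 12 h, against 7.01 and 6.16 at 6 h, and at 8.65 and 8.17 in water leaves at 12 h, against 7.48 and 7.47 at 6 h. It rose by 2.24 (SE 0.33, adjusted p = 0.00663) beside 0.935 in water leaves (adjusted p = 0.0883), with adjusted p = 0.311 for the difference. The same direction under both sprays, and a water change over 0.5, keep it out of the 916. Of the other largest named rises, LOC778242 was at 1.645 beside 0.58 in water leaves (adjusted p = 0.185 for the difference), LOC543641 at 1.64 beside 0.76, and LOC778326 at 1.445 beside 1.68.

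A further 702 probe sets passed in water leaves and not in NPA leaves, and several transcription factor and hormone genes were among them. PTI4, an ethylene-response factor, stood at 11.52 and 11.40 in NPA leaves at 12 h, against 11.38 and 11.14 at 6 h, and at 11.59 and 11.43 in water leaves at 12 h, against 10.36 and 10.53 at 6 h. It was at 0.20 in NPA leaves (adjusted p = 0.337) and rose by 1.065 in water leaves, with adjusted p = 0.191 for the difference. The water 6 h arrays were the lowest of the 8. krp2, an inhibitor of cyclin-dependent kinases, was at 0.145 in NPA leaves and rose by 1.05 in water leaves (difference, adjusted p = 0.185), and the kinase gene MKK4 was at 0.02 and rose by 1.025 in water leaves (difference, adjusted p = 0.278). AGPL3, another subunit of the enzyme that makes ADP-glucose, was at -0.145 and fell by 0.86 in water leaves (difference, adjusted p = 0.191).

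Of 15 ethylene-response factor probe sets 2 rose in NPA leaves and none fell, against 14.2% and 11.8% of all probe sets. JERF1 rose by 0.885 (adjusted p = 0.0131) and LOC543864 by 0.495 (0.017), beside 0.865 and 0.74 in water leaves. With the repeat as a block 4 rose and 1 fell, against 21.7% and 18.7%. The median was 0.06 in NPA leaves and 0.74 in water leaves. JERF1 did not pass without the NPA 12 h array of repeat 1 (0.0529) or the NPA 6 h array of repeat 1 (0.0701), nor LOC543864 without any 1 NPA array (0.0579 to 0.0784).

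Of 23 probe sets for ethylene synthesis and signalling 1 rose and 1 fell in NPA leaves, against 14.2% and 11.8% of all probe sets. Under the block 2 rose and 3 fell, against 21.7% and 18.7%. In water leaves 9 rose and none fell, against 11.7% and 10.5%. The median was 0.17 in NPA leaves and 0.38 in water leaves. The rise was the receptor gene ETR4 at 1.15 (adjusted p = 0.0365) beside 1.525 in water leaves, and the fall was ETR6, described above. ACC oxidase ACO4, which makes ethylene, stood at 11.20 and 11.19 in NPA leaves at 12 h, against 11.56 and 11.48 at 6 h, and changed by -0.325 (adjusted p = 0.0761, or 0.045 with the repeat as a block) beside 0.405 in water leaves, with adjusted p = 0.189 for the difference. EIL1 and EIL3, factors of ethylene signalling, were at 0.365 and 0.435 in NPA leaves and rose by 0.88 and 0.895 in water leaves. EIL3 also passed in NPA leaves with the block (0.0226). ETR4 did not pass without any 1 NPA array (0.0555 to 0.161), with array weights (0.0537) or with the NPA arrays alone (0.0604).

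Of 14 probe sets for pathogenesis-related (PR) proteins, secreted defence proteins, none rose and 1 fell, against 14.2% and 11.8% of all probe sets. The median was 0.5475 in NPA leaves and 0.25 in water leaves. Within NPA leaves, repeat 1 had a median of 1.055 and repeat 2 one of -0.10. P4, a PR-1 protein, stood at 11.82 and 6.22 at 12 h, against 8.22 and 5.57 at 6 h, and the groups overlapped (change 2.125, SE 1.73, adjusted p = 0.404). PR1b1, another, stood at 13.40 and 10.42 at 12 h, against 11.75 and 8.64 at 6 h (change 1.715, SE 1.25, adjusted p = 0.354). The fall was P69A, a subtilisin-like protease, at -1.17 (adjusted p = 0.00787) beside -1.10 in water leaves.

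The WRKY list of 5 probe sets had 2 falls, both of LOC543856, at -1.055 (adjusted p = 0.00431) and -1.135 (0.00753) beside -0.56 and -0.755 in water leaves. WRKYIId-4 was at 0.505 in NPA leaves and rose by 1.13 in water leaves. The median was -0.42 in NPA leaves and -0.04 in water leaves. None of 5 phosphate starvation probe sets passed in NPA leaves, with a median of -0.23 there and -0.33 in water leaves. RNALE, a ribonuclease gene induced when phosphate is scarce, stood at 8.64 and 8.09 in NPA leaves at 12 h, against 8.51 and 8.11 at 6 h (change 0.055, adjusted p = 0.901), and at 4.73 and 4.79 in water leaves at 12 h, against 5.26 and 5.87 at 6 h. The NPA arrays of the 2 hours overlapped, and all 4 lay above the water arrays.

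Glutathione and ascorbate genes moved in different directions. Of 20 glutathione transferase and redox probe sets 2 rose and 3 fell, against 14.2% and 11.8% of all probe sets. With the repeat as a block 2 rose and 8 fell, against 21.7% and 18.7%. The median was -0.3675 in NPA leaves and -0.27 in water leaves. GSH1 and GSH2, the enzymes that build glutathione, rose by 0.60 (adjusted p = 0.018) and 0.635 (0.0422), beside 0.245 and 0.15 in water leaves. The ascorbate peroxidases APX1 and APX2 fell by 1.11 (0.0139) and 0.73 (0.0108), and a glutathione peroxidase probe set, GPXle-2, by 0.585 (0.0491), beside changes of -0.785, -0.555 and -0.655 in water leaves. APX1 and APX2 did not pass without the NPA 12 h array of repeat 2 (0.0686 and 0.0551) or the NPA 6 h array of repeat 1 (0.061 and 0.0509), and GSH1 did not pass without any 1 NPA array (0.0637 to 0.0849). GSH2 did not pass without any 1 array other than the NPA 6 h array of repeat 1 (0.0619 to 0.149), nor GPXle-2 without any 1 NPA array or either water 6 h array (0.0806 to 0.172). Array weights also ended the calls of GSH2 (0.056) and GPXle-2 (0.0672), an intensity trend that of GPXle-2 (0.0613), and a fit to the NPA arrays alone those of all 5 genes (0.0531 to 0.113).

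Of 20 MAP kinase, calcium and resistance probe sets 2 rose and 5 fell, against 14.2% and 11.8% of all probe sets. With the repeat as a block 5 rose and 6 fell, against 21.7% and 18.7%. The median was -0.1275 in NPA leaves and -0.0275 in water leaves. Beside tft10 the rise was CITRX, a thioredoxin, at 0.525 (adjusted p = 0.027). The falls were the kinases MKK2 at -0.85 (0.0136), CDPK1 at -0.595 (0.0103) and MPK2 at -0.455 (0.0486), and the 14-3-3 genes TFT3 at -0.69 (0.0372) and tft8 at -0.675 (0.0347). In water leaves CITRX changed by 0.335, MKK2 by -0.345, CDPK1 by -0.37, MPK2 by -0.06, TFT3 by -0.265 and tft8 by -0.855.

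Apart from that of tft10, each of these calls was lost when some single arrays were left out, while the changes kept their direction. MKK2 stayed between -0.86 and -0.84, CDPK1 between -0.615 and -0.575 and MPK2 between -0.53 and -0.38. CITRX did not pass without any 1 NPA array (0.0522 to 0.125), nor MKK2 without the NPA 12 h array of repeat 2 or either NPA 6 h array (0.0608 to 0.0615), nor CDPK1 without the NPA 12 h or 6 h array of repeat 2 (0.0504 each). MPK2 did not pass without any 1 of the 8 arrays (0.0619 to 0.172), after median centring (0.0545), after another quantile normalization (0.0608), with array weights (0.0683) or with the NPA arrays alone (0.111), and TFT3 without any 1 NPA array or either water 6 h array (0.0599 to 0.146). tft8 did not pass without either NPA 12 h array, the NPA 6 h array of repeat 1 or either water 6 h array (0.0624 to 0.147).

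In the remaining lists few probe sets passed. The auxin list of 8 had ARF3, an auxin response factor, at 1.00 (adjusted p = 0.0107) beside 0.39 in water leaves and IAA7, a repressor of auxin responses, at -1.185 (0.0144) beside -0.84, with a median of 0.065 in NPA leaves. A second ARF3 probe set, at 1.09, passed with the repeat as a block (0.00936 against 0.0541 without). Of 3 heat shock probe sets Hsp90-1 fell by 0.97 (0.00863) and the small heat shock gene HSP17.4 by 1.98 (0.0162), beside changes of -0.91 and -0.865 in water leaves. Of 7 phenylpropanoid probe sets hqt, an enzyme of chlorogenic acid synthesis, fell by 0.525 (0.0238) beside a change of -0.415, and chalcone synthase CHS2, at -1.05, passed with the block (0.0433 against 0.176 without). Of 6 gibberellin, cytokinin and brassinosteroid probe sets GA20OX1, a gibberellin oxidase, fell by 1.285 (0.0407, or 0.0653 with array weights) beside a change of -1.68, and 2 rose under the block.

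ARF3 did not pass without the NPA 12 h array of repeat 2 (0.0522) or the NPA 6 h array of repeat 2 (0.0528), nor HSP17.4 without the NPA 12 h array of repeat 2 (0.0512) or the NPA 6 h array of repeat 2 (0.0794). IAA7 did not pass without the NPA 12 h array of repeat 1 (0.0568) or the NPA 6 h array of repeat 1 (0.077). hqt did not pass without any 1 NPA array (0.0636 to 0.102), nor GA20OX1 (0.0806 to 0.169).

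**Figure D5:**
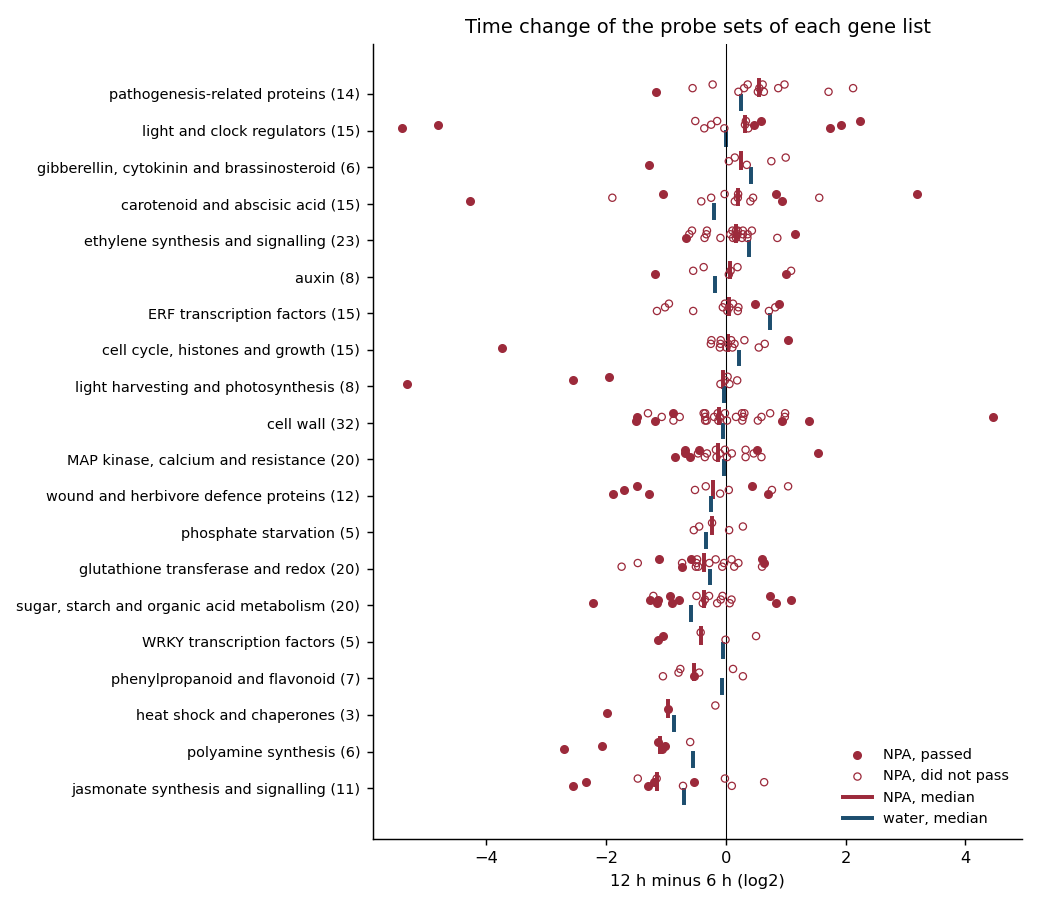
Change from 6 h to 12 h (log2) of the probe sets of 20 gene lists in NPA leaves, filled circles for those that passed and open circles for those that did not, with the median in NPA leaves as a red bar and in water leaves as a blue bar. The number of probe sets follows each list's name. The jasmonate and polyamine lists have the lowest NPA medians, -1.155 and -1.0975, and the lists hold from 3 to 32 probe sets.

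Markers of other cell types gave few values. Of 5 glandular trichome markers 2 were measured: MTS1, a monoterpene synthase of trichomes, stood at 3.36 and 3.81 in NPA leaves at 12 h, against 4.88 and 6.03 at 6 h, and fell by 1.87 (adjusted p = 0.0136) beside a change of -0.565 in water leaves, while SSTLE1 was at 0.28. MTS1 did not pass without the NPA 12 h array of repeat 1 (0.0533). The mean of the 2 markers lay between 4.96 and 5.67 at 12 h and between 5.82 and 6.4 at 6 h in NPA leaves. MTS1 moved in the same direction as the jasmonate and polyamine genes that passed, and SSTLE1 did not. The part of trichomes in those changes was not tested. The 1 root marker measured of 4 was at 0.05, and of the 4 flower and fruit markers measured of 14, TDR6 rose, fsm1 fell and the others did not pass. Neither of 2 phloem markers had a named probe set.

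Unnamed probe sets held the extremes. The largest fall was to 5.72 and 4.91 in NPA leaves at 12 h, against 13.19 and 13.16 at 6 h, a change of -7.86 (232-fold, adjusted p = 5.84e-05) beside -7.595 in water leaves. The largest rise was to 11.97 and 12.36 at 12 h, against 6.32 and 7.19 at 6 h, a change of 5.41 (adjusted p = 0.00272) beside 4.685. The largest change in either direction was thus present in water too.

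Among the unnamed changes with little or no counterpart in water, the rise with the smallest p for the difference stood at 5.66 and 5.66 in NPA leaves at 12 h, against 3.59 and 3.51 at 6 h, and at 4.83 and 4.78 in water leaves at 12 h, against 4.49 and 4.78 at 6 h. It rose by 2.11 (adjusted p = 0.000464) beside 0.17. The difference was 1.94 (adjusted p = 0.11, or 0.0475 after another quantile normalization and 0.0309 with the repeat as a random block, but 0.0671 as a fixed block). The NPA arrays lay above all water arrays at 12 h and below them at 6 h.

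Another unnamed probe set stood at 8.10 and 8.06 in NPA leaves at 12 h, against 10.03 and 9.91 at 6 h, and at 7.98 and 7.94 in water leaves at 12 h, against 8.49 and 8.40 at 6 h. It fell by 1.89 (adjusted p = 0.00038) beside a change of -0.485 in water leaves, which was small in size but also passed (0.0258). A further one stood at 4.85 and 5.02 in NPA leaves at 12 h, against 6.11 and 6.22 at 6 h, and fell by 1.23 (0.00255) beside a change of 0.295. Both differences between the sprays passed with the repeat as a random block (0.0309 each), but neither with a fixed block (0.0671 each) nor with no block (0.14 and 0.147).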

How the data were processed

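RNA of 8 pools of tomato leaves was hybridized to 1 array each. The deposited values are log2 expression values made by the authors with RMA, per the submitters' processing notes. Neither its version nor its settings is given in the sources used here. They lie between 2.68 and 14.6, with no detection calls, so no probe set was called absent. Of 8488 probe sets, 84 controls were left out. Platform annotation, which can be old, gave 753 of the 8404 tested a single gene symbol and 7651 none, and 739 matched RefSeq's gene table (assembly SLM_r2.1). Coordinates are left out because the array names no build. Every column belonged to a sample.

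Using limma 3.58.1 under R 4.3.3, lmFit and eBayes estimated the mean of each group from all 8 arrays together (residual degrees of freedom 4, prior SD 0.163), with contrasts for 12 h against 6 h in NPA leaves, in water leaves, and their difference. Arrays of the same repeat departed from their group means together (r from 0.316 to 0.596 over 6 pairs of groups), and the series design says that the whole experiment was repeated, so the numbers pair the arrays. The main fit has no term for the repeat. Values with the repeat as a block stand beside the counts and genes described where they alter a call, and other list members also passed under the block alone. Lists are described by counts and medians over probe sets.

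The comparison described, the gene lists, the naming rule and the tests were chosen with earlier results of these data known. Named genes were the largest called changes (up to 12 in each direction), the called changes with little or no water change with the smallest p of the difference (up to 10), the named genes with the smallest p of that difference (up to 5), up to 5 members of each list by p, and up to 4 unnamed probe sets in each direction. The text also names the other called members of the lists and of the marker lists, and some members that did not pass, chosen after their values were seen. The fit was tested on simulated data before use. Alternatives were other normalizations, filters on dim probe sets, other limma settings and thresholds, the block, and leaving out each array, where the lone array of a group takes its spread from the other groups. Figures used matplotlib 3.10.9 in Python 3.11.15.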

Additional observations from a re-analysis of the deposited data

How the results depend on the processing

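The settings were compared on 5 counts: 1195 probe sets higher and 988 lower at 12 h in NPA leaves, 0 with a different time change under the sprays, 916 NPA changes with little or no change in water, and 1158 changes called under both sprays. Paired by repeat, with the replicate block, the counts were 1826, 1575, 0, 1691 and 1955, and with a random block 1513 lower, 5 different, 1607 with little water change and 1877 under both sprays. With the brighter probe sets only (above the median level) they were 685, 596, 1, 550 and 754, and with only the NPA arrays 566 higher and 492 lower. At an adjusted p under 0.01 they were 331, 332, 0, 148 and 318, and with at least a 2-fold change 373, 441, 0, 164 and 433. Different time changes numbered 1 with an intensity trend or without the dimmest probe sets and 2 after another quantile normalization. A water change under 0.25 left 503 of the 916, and an unadjusted p of the difference under 0.05 left 444. Leaving out each array gave 422 to 1033 higher, 429 to 859 lower, 0 to 1 different, 247 to 810 with little water change and 302 to 886 under both sprays.

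No direction reversed among the 112 named NPA changes and 32 differences followed, in settings that reuse the arrays that chose them. Of 109 called NPA changes, 54 passed with each array left out in turn, and the calls lost were 34 with only the NPA arrays, 11 with array weights, 2 with an intensity trend, 1 each with median centring, quantile normalization and robust estimation, and 0 with either block. The filters kept 87 and 69 of these probe sets, all of which passed, and the others were not tested there. With only the NPA arrays the calls lost (adjusted p 0.0531 to 0.12) were those of LEJA1, HDS, LOC544217, OPR3, ETR6, FDH, DHQS, ETR4, LOC543864, adc1 (1 probe set), TBG4, krp1, APX2, APX1, GSH1, GSH2, GPXle-2, HSP17.4, hqt, CDPK1, CITRX, tft8, TBG6, SNF1, FRK3, AgpL1, LAPA2, Cry1b, TFT3, MPK2, MTS1, CRY2 and 2 unnamed probe sets. Without detection calls, no dim probe set can be called absent, and 2 arrays in each group limit what a fit can call.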
